A study of Bos taurus with 27 samples.

Results

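The genes described here are 48 of the 24616 genes counted in the ileum of newborn calves, and 48 of the 11429 with enough counts to be compared. They were chosen from the measured values, as the genes whose level fell most closely as the calves' score on the main axis of variation rose. The tissue, the final stretch of small intestine before the large bowel, was taken at 51 h of age from 27 male Holstein calves. Each library came from a separate calf. Colostrum had been fed directly after birth (0 h) to 9 calves, at 6 h to 9 and at 12 h to 9. The labels name no other treatment, no genotype and no batch, and all 3 groups share breed, sex, tissue and age. The question put by the design is whether delaying the colostrum feeding changed the transcripts of the ileum.

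Colostrum is the milk of the time around birth. It carries the mother's antibodies, which the intestine of a newborn calf takes up whole for a short time before the epithelium closes to large proteins. The ileum also holds lymphoid tissue and is where bile acids are taken back up. Whole tissue mixes epithelium, immune cells, connective tissue and muscle. In such bulk samples fewer cells of a type and less RNA per cell cannot be told apart. Genes are given in the deposited table as Ensembl cattle identifiers, and 0 of the 48 were matched to a symbol in the gene table used. The function of these genes, their positions and sequences, and the tissue's cell type markers are therefore not given.

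Members were found with a principal component analysis, which places each calf on the axis along which all genes together vary most. Genes were centred but not scaled to equal variance, so genes that vary more between calves weigh more in the axis. Values were log2 CPM, which are counts relative to the scaled library total, on a log2 scale with 2 counts added. The variance along the first component was 15.9% of the total. The axis was turned so that the most abundant gene, ENSBTAG00000043570, correlated negatively with it. Genes with a Pearson r under -0.7 with the score were taken, apart from the 10 most abundant genes. That exclusion removed nothing, since none of the 10 lay under -0.7. The rule met 0.42% of the genes compared, and those 48 are called the low-end genes below because they are high in calves with a low score. At the other end of the axis, 659 genes had an r over 0.7.

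The correlation with the score ran from -0.82 to -0.70 among the 48, with a median of -0.73. A single gene lay under -0.8. The last genes inside the threshold stood at -0.706 and -0.702, and the first outside it at -0.6994 and -0.6988. No gap in the values therefore marks where the set ends. These correlations chose the genes, so they are a description and not a test.

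The working label for the set, genes rising with the most abundant transcript, was only partly borne out. ENSBTAG00000043570 had an r of -0.52 with the score (Spearman rho -0.63), so it would not have met the rule itself, and 642 genes had a lower r.

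**Figure D1:**
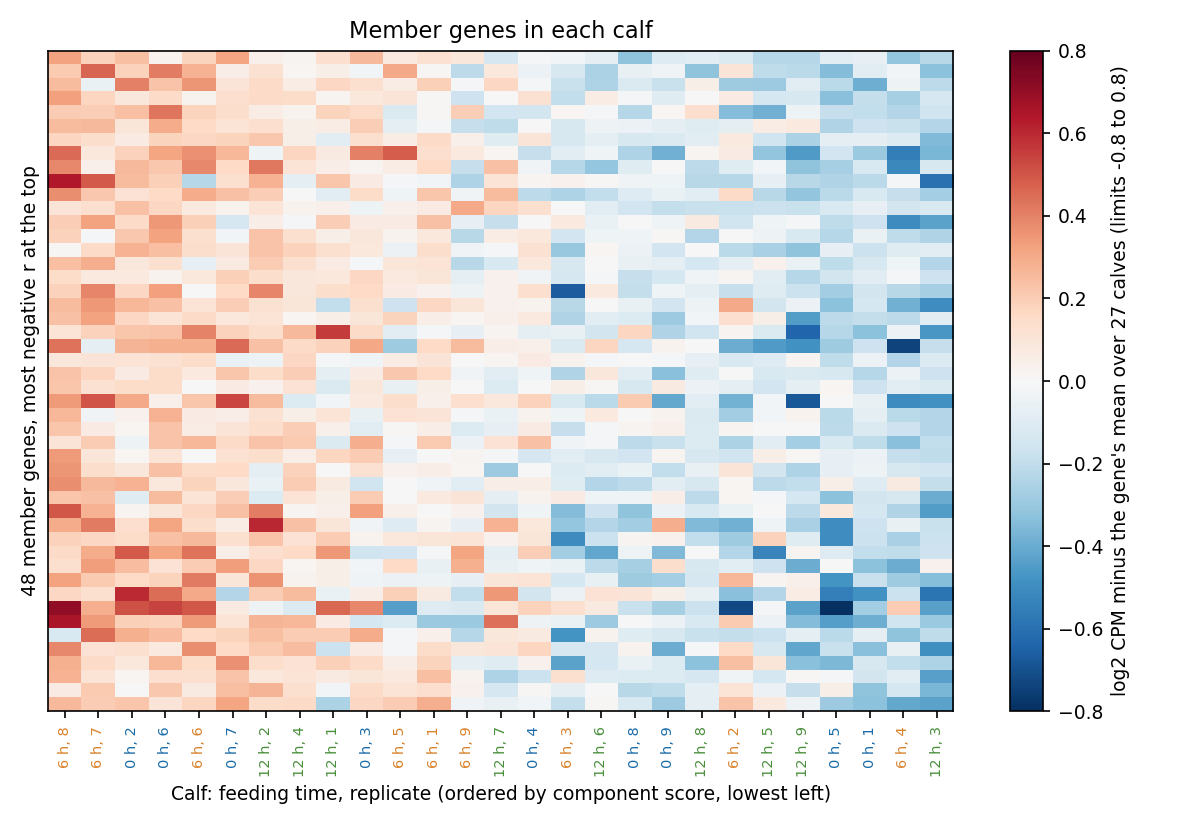
Level of each of the 48 low-end genes (rows, most negative r at the top) in each of the 27 calves (columns, ordered by score, lowest left; labels give feeding time and replicate, coloured by feeding time). Colour is log2 CPM minus the gene's mean over all calves, from blue (low) to red (high). Rows change together from red to blue, and calves of the 3 feeding times are mixed along the axis.

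The low-end genes were more abundant and steadier than most genes. Their mean level ran from 4.14 to 9.52 log2 CPM with a median of 6.57, against a median of 4.80 over the 11429 genes. Of the 48, 38 lay among the 2857 most abundant genes. Their standard deviation over calves had a median of 0.20 on the log2 scale, against 0.30 over all genes compared, and 45 of 48 were below that overall median. The genes at the other end of the axis had a median level of 5.09 and a median standard deviation of 0.42. Between the lowest and the highest calf, the low-end genes differed by 1.31-fold to 2.91-fold, with a median of 1.69-fold. Over 2-fold was reached by 11 of 48, and by 67.4% of all genes compared.

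Depth bears on which genes could enter the set. Libraries held 972578 to 7125552 counts, and the smallest count of a low-end gene in any library was 12. The lowest count per gene had a median of 75 over the 48. Counting alone would give a median of 35.0% of the variance of the low-end genes, against 53.6% over all genes compared and 24.2% at the other end of the axis. When every library was reduced at random to 972578 counts, the rule found 26 genes, 16 of them among the 48.

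**Figure D2:**
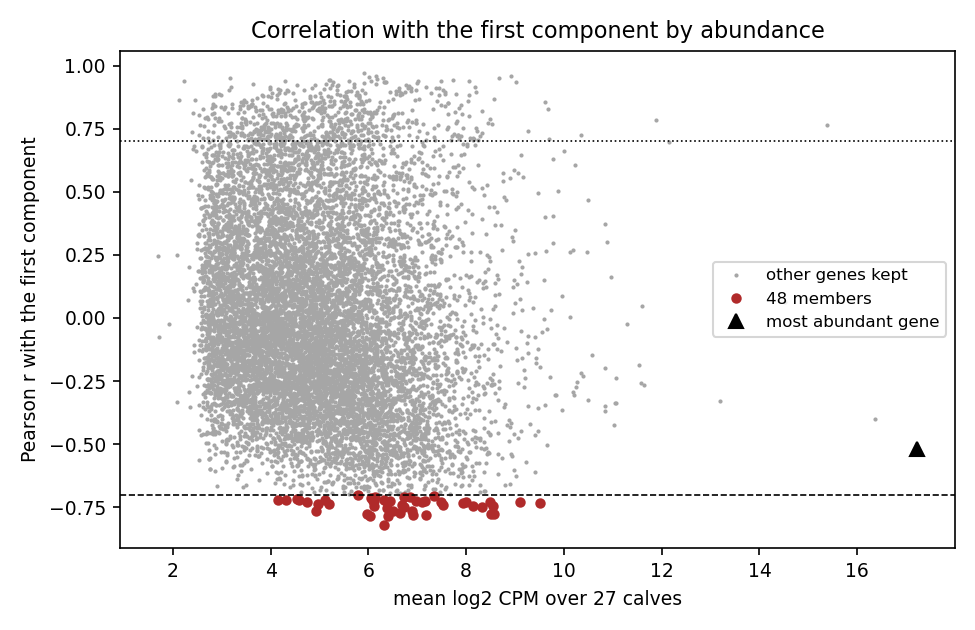
Pearson r with the first component (vertical axis) against mean log2 CPM over 27 calves (horizontal axis) for each of the 11429 genes compared. Red points are the 48 low-end genes, the triangle is the most abundant gene at r = -0.52, and the lines mark r of -0.7 and 0.7. Red points lie to the right of most genes, with a median level of 6.57 against 4.80.

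Any pair of low-end genes rose and fell together to some degree. Over the 1128 pairs, r between the log2 CPM of both genes ran from 0.28 to 0.87 with a median of 0.58, and 1128 were positive. Over all pairs of genes compared the median was -0.0029 and 49.5% were positive. Genes chosen for one shared correlation must resemble each other, so this is a description. Within the 9 calves of a single feeding time the median r between low-end genes was 0.68 at 0 h, 0.61 at 6 h and 0.59 at 12 h. The median over all pairs of genes compared was -0.0018, -0.0025 and -0.0019 in the same groups. Single pairs of low-end genes fell as low as -0.13 at 0 h, -0.17 at 6 h and -0.09 at 12 h. The choice of the genes over all 27 calves favours positive values within the groups as well, so these are a description.

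Counted calf by calf, most animals were either high or low for nearly the whole set. Genes chosen for their r with a single score tend to split the calves in this way, so these counts are a description. In 8 calves at least 40 of the 48 genes lay above their own median over the 27 animals, and in 10 calves at most 8 did. The other 9 calves lay between. Replicate 6 at 0 h had 48 of 48 genes above the median and replicate 1 of the same feeding group had 0. At 6 h the extremes were 47 in replicate 8 and 3 in replicate 4. At 12 h they were 42, in replicates 2 and 4, and 1 in replicate 3. Both extremes therefore occurred at each feeding time.

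The mean log2 CPM of the 48 genes was 6.43 in the lowest calf fed at 0 h, 6.67 in the median calf and 6.86 in the highest. At 6 h these values were 6.44, 6.67 and 6.91, and at 12 h they were 6.37, 6.57 and 6.81. The 3 groups overlapped over nearly their whole range. Group means were 6.65 ± 0.16 at 0 h (SD, n = 9), 6.68 ± 0.16 at 6 h and 6.60 ± 0.14 at 12 h. From the lowest calf to the highest, the mean level of the set changed by 0.54 on the log2 scale, or 1.45-fold. As a share of all counts, the 48 genes took 0.704% ± 0.084 at 0 h, 0.717% ± 0.074 at 6 h and 0.677% ± 0.070 at 12 h.

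The low-end gene most tightly bound to the axis was ENSBTAG00000020403, with r = -0.82. Its normalised CPM, on the scaled totals without the log, was 62.8 in the lowest calf fed at 0 h, 77.6 in the median calf and 98.1 in the highest. At 6 h it was 63.0, 83.7 and 98.2, and at 12 h it was 66.9, 74.0 and 86.4. All 3 groups overlapped, and the narrowest range was that of 12 h. These levels rest on 60 to 438 counts per library. Relative to 0 h it changed by 0.03 at 6 h (log2, SE 0.0892) and by -0.13 at 12 h (SE 0.0872). From 6 h to 12 h the log2 difference was -0.15 (SE 0.0884), and the smallest of the 3 adjusted p from edgeR was 0.936.

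The most abundant low-end gene was ENSBTAG00000020308, with r = -0.73 and a mean of 734.7 normalised CPM. It stood at 637.7 in the lowest calf fed at 0 h, 726.5 in the median calf and 797.0 in the highest. At 6 h these values were 623.4, 763.1 and 811.8, and at 12 h 680.0, 725.5 and 823.3. Both the lowest and the highest of all 27 calves lay in the delayed groups, and all groups overlapped. The highest calf exceeded the lowest by 1.32-fold. Relative to 0 h its log2 level differed by 0.03 at 6 h (SE 0.0648) and by -0.01 at 12 h (SE 0.0646). The difference of 12 h from 6 h was -0.04 (SE 0.0647), and the smallest of the 3 adjusted p from edgeR was 0.974. Both genes followed the same axis, yet their own correlation over the 27 calves was only 0.53.

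**Figure D3:**
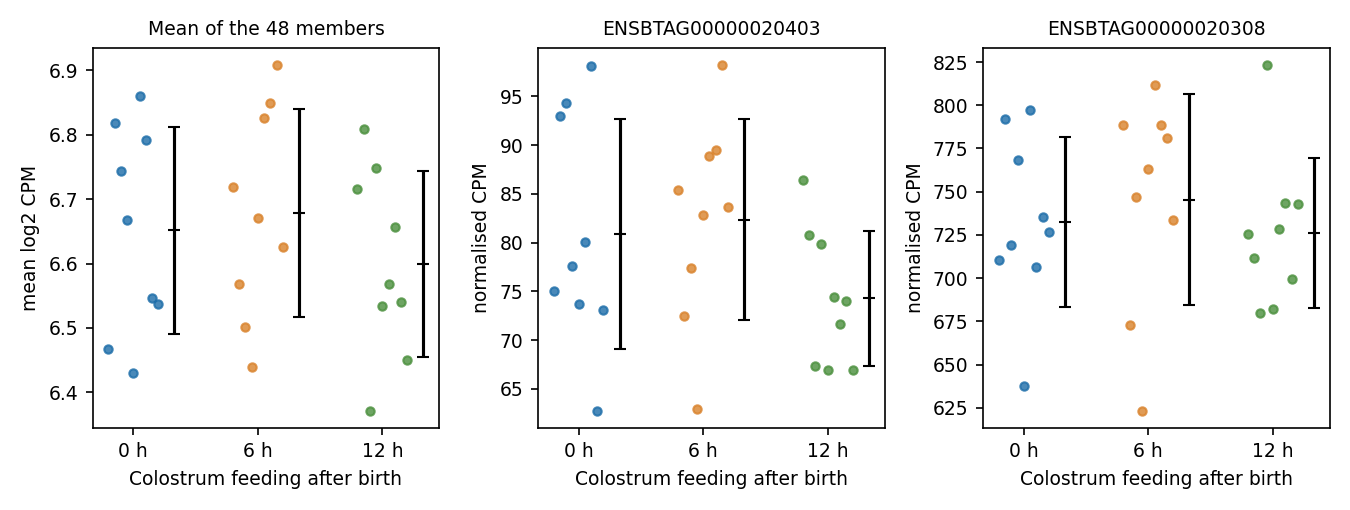
Mean log2 CPM of the 48 low-end genes (left) and normalised CPM of ENSBTAG00000020403 (middle) and ENSBTAG00000020308 (right) in the 3 feeding groups. Each point is an animal; bars show mean and SD (n = 9), and vertical axes do not start at 0. The feeding groups overlap in each panel, with group means of the set at 6.65, 6.68 and 6.60.

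The level of the most abundant gene followed the low-end genes loosely. ENSBTAG00000043570 took 11.8% to 18.7% of the counts of a library. Its level in log2 CPM ran from 16.96 to 17.43 at 0 h, from 17.17 to 17.37 at 6 h and from 16.86 to 17.73 at 12 h. Over the 27 calves its r with single low-end genes ran from 0.09 to 0.67 with a median of 0.38. All 48 were positive, where 51.3% of genes compared were. An r over 0.5 was reached by 9 of 48, and by 1.55% of the genes compared. No low-end gene passed 0.7, and 2 other genes did. Since the axis was turned by this gene, and the gene was part of the analysis that drew it, these values are a description.

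Within the 9 calves fed at 6 h the median r between the most abundant gene and the low-end genes was 0.66, and 38 of 48 exceeded 0.5. At 0 h the median was 0.38, with 15 over 0.5 and 5 negative. At 12 h it was 0.39, with 19 over 0.5 and 4 negative, and 0.55 without replicate 7. Over all genes compared, 13.1%, 9.70% and 10.04% exceeded 0.5 at 6 h, 0 h and 12 h. Differences between the groups were not tested. Replicate 7 at 12 h, the deepest library, stood apart with the highest level of the most abundant gene and a middling level of the low-end genes, with 23 of 48 above their median. Its scaling factor of 0.867 was the lowest of the 27 (median 0.997), which raises all its normalised values. As a share of its unscaled counts, the 48 genes took 0.591%, beside a median of 0.693% over all calves. The most abundant gene's unscaled share there, 18.7%, was still the highest. Without this library the median r over the remaining calves was 0.46, and the most abundant gene's r with the score was -0.62.

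Counts of an abundant gene also lower the unscaled CPM of every other gene, because those are shares of the library. With totals that leave out the 10 most abundant genes, the median r of the 48 with ENSBTAG00000043570 was 0.34, beside the 0.38 given above. Those totals were not scaled further, so both values differ in scaling as well as in the totals. The effect of the totals alone was not tested. With those 10 genes removed from the table before scaling and analysis, the rule found 47 genes, 45 of them among the 48. Of the other 9 most abundant genes, the second, the sixth and the tenth had r of 0.63, 0.63 and 0.58 with ENSBTAG00000043570 and of -0.40, -0.33 and -0.27 with the score. The third, the seventh and the eighth went the other way along the axis, with r of 0.76, 0.70 and 0.79 with the score.

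**Figure D4:**
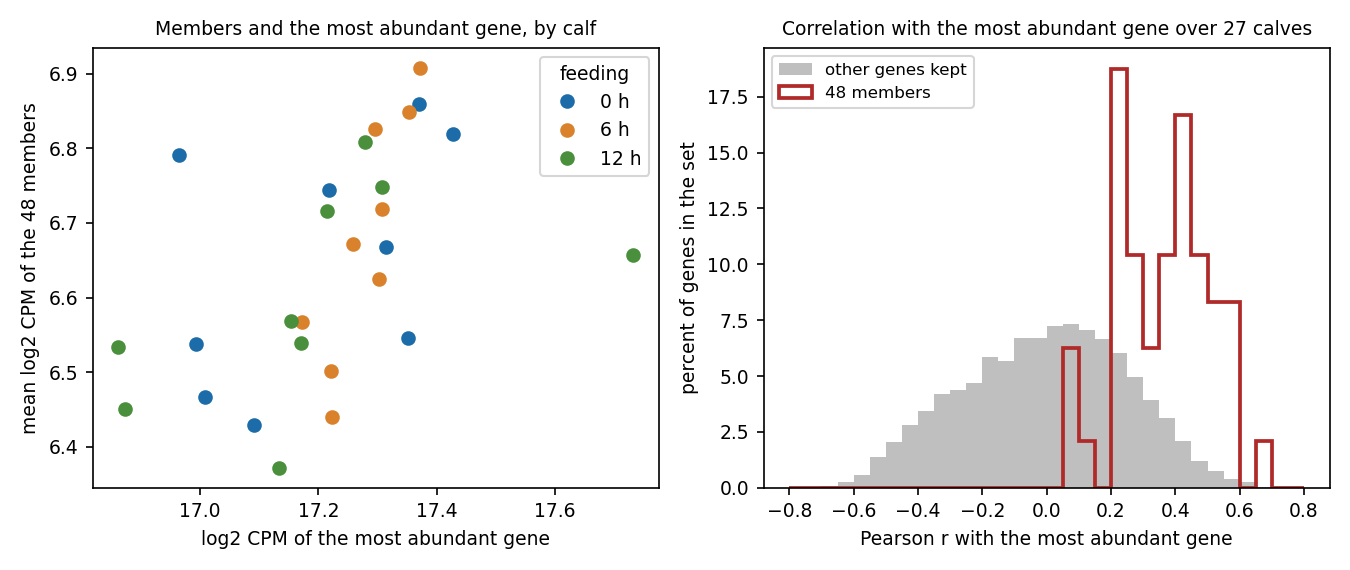
Left, mean log2 CPM of the 48 low-end genes against log2 CPM of the most abundant gene, each point a calf coloured by feeding time. Right, Pearson r with the most abundant gene over 27 calves, as percent of the 48 low-end genes (red outline) and of the other genes compared (grey). All 48 low-end genes are above 0, with a median of 0.38, and the calf at the far right of the left panel is replicate 7 at 12 h.

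Feeding time was then compared for these genes in a fit over all 11429 genes and 27 libraries. Between calves fed at 6 h and at 0 h, 0 of the 48 passed an adjusted p of 0.05 in the quasi-likelihood test of edgeR, with 0% of all genes called. At an unadjusted p under 0.05 it also listed 0 of 48, against 1.79% of all genes higher and 1.54% lower; DESeq2 and limma voom called 0 too. The log2 fold change was above 0 in 35 of 48, against 49.8% of all genes, with a median of 0.03 and a range of -0.12 to 0.15. The overall median was -0.0005. Because the genes move together, their signs are not 48 separate observations. The 95% confidence intervals of 48 of 48 excluded a change of 1.5-fold up or down, as did those of 79.3% of all genes.

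For calves fed at 12 h against those fed at 0 h, edgeR's adjusted p called 0 of the 48, with 0% of all genes called. DESeq2 and limma voom called 0 of the 48 as well. At an unadjusted p under 0.05 edgeR listed 0, against 1.90% of all genes higher and 1.60% lower. The log2 fold change was below 0 in 42 of 48, where 50.3% of all genes were above 0. Its median was -0.05 (range -0.23 to 0.08), beside 0.0009 over all genes. Every interval of the 48 lay within 1.5-fold, as did those of 84.5% of all genes. Both delayed groups were compared with the same calves fed at 0 h, so the 2 sets of values are not independent.

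Between the delayed groups the low-end genes were lower at 12 h than at 6 h in 42 of 48 by the sign of the log2 fold change. The median was -0.08 with a range of -0.24 to 0.07, beside 0.0004 over all genes, of which 50.1% were above 0. The median standard error of a single low-end gene was 0.0938, so the typical shift was smaller than its own error. None of the 48 passed edgeR's adjusted test, with 0% of all genes called, and DESeq2 and limma voom called 0. At an unadjusted p under 0.05, 5 of 48 were listed lower and 0 higher, against 2.51% and 2.61% of all genes. Because the genes move together, neither these 5 nor the 42 signs are separate observations. The same calves entered the comparisons with 0 h, so this comparison is not independent of those. Intervals lay within 1.5-fold for 48 of 48 and for 80.1% of all genes.

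Of those 5, the pair with the smallest p was chosen after the values were seen. ENSBTAG00000000806 stood at 71.7, 89.2 and 115.2 normalised CPM in the lowest, median and highest calf fed at 6 h, and at 66.1, 72.0 and 90.5 in those fed at 12 h. At 0 h these values were 65.1, 81.5 and 110.7, and the 3 groups overlapped. The log2 difference of 12 h from 6 h was -0.24 (SE 0.0962, unadjusted p = 0.0185, edgeR adjusted p = 0.926). ENSBTAG00000011304 stood at 98.7, 113.7 and 128.0 at 6 h, at 77.6, 98.1 and 113.5 at 12 h, and at 93.3, 104.6 and 123.7 at 0 h. The same difference was -0.19 (SE 0.0779, unadjusted p = 0.0214, edgeR adjusted p = 0.926). Neither passed the adjustment.

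**Figure D5:**
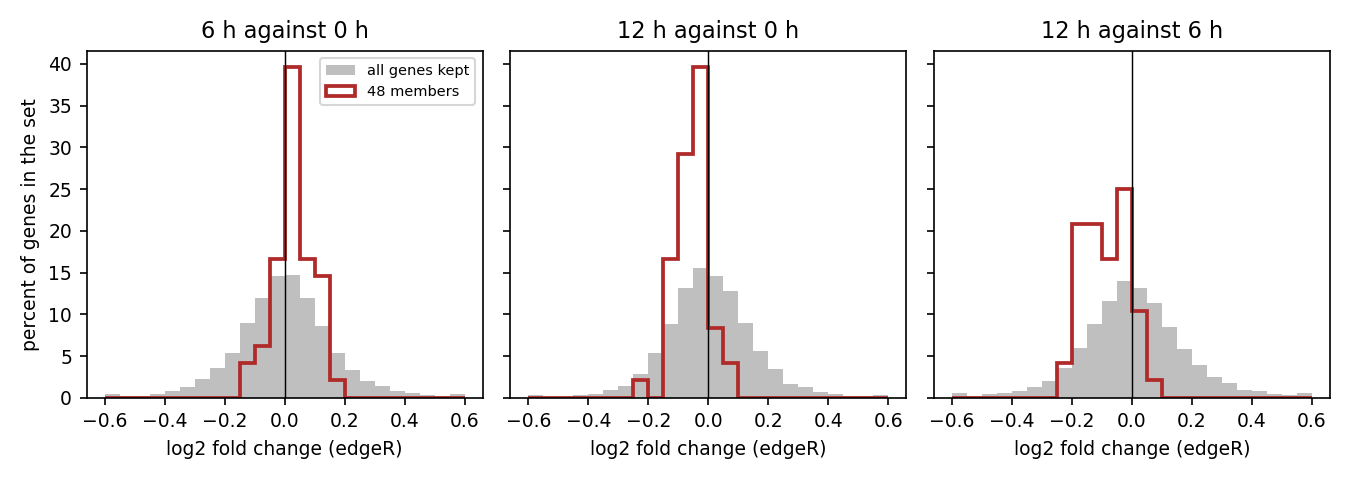
Log2 fold changes from edgeR for the 3 feeding comparisons, as percent of the 48 low-end genes (red outline) and of all 11429 genes compared (grey; values beyond 0.6 in either direction are drawn in the outermost bars). The medians of the low-end genes are 0.03, -0.05 and -0.08, all inside the spread of the other genes.

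When all 3 feeding times were tested at once, edgeR called 0 of the 48 and 0% of all genes. At an unadjusted p under 0.05 it listed 0 of the 48, against 3.81% of all genes. Differences between the means of the feeding groups made up a median of 4.38% of the variance of a low-end gene, beside 5.30% over all genes compared. These shares are not corrected for the differences between group means that arise without any effect of feeding. The rest of the variance lay within feeding groups, and it includes counting noise as well as differences between calves.

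Measures that the rule did not correlate with the score were set beside it over the 27 calves. They are not wholly separate from the rule. The library total enters the CPM and the filter, and the filter sets which genes are too rare to be compared. The log2 library total had r = 0.18 and Spearman rho = 0.16 with the score (permutation p = 0.367 and 0.436, two-sided). Without the 2 totals farthest from the median r was 0.16, and within the groups it was 0.21 at 0 h, -0.12 at 6 h and 0.06 at 12 h. The number of genes seen among the 13187 that were too rare to be compared, at equal totals, had r = 0.17 and rho = 0.19 (permutation p = 0.409 and 0.334). Without the 2 farthest libraries r was 0.26, and within the groups it was 0.06, 0.65 and -0.18 in the same order. None of these passed the threshold.

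The share of counts held by those rare genes was the measure most related to the score. It ran from 0.949% to 1.92% of a library, with r = 0.42 (permutation p = 0.0304) and rho = 0.37 (permutation p = 0.0536). Adjusted over the 3 measures, these permutation values became p = 0.0911 and 0.161. Replicates 3 and 5 at 12 h held the 2 shares farthest from the median, 1.92% and 1.81%. Without them r over the other calves was 0.22 (permutation p = 0.293), so the size of the pooled r depended in part on those libraries. Within the groups r was -0.37 at 0 h (exact permutation p = 0.336), 0.60 at 6 h (exact permutation p = 0.0852) and 0.80 at 12 h (exact permutation p = 0.0119, unadjusted). Without replicates 3 and 5 the r at 12 h was 0.63 (n = 7, exact permutation p = 0.0938). The sign was not the same in the 3 groups, and the difference between them was not tested. A positive r here pairs a larger share of rare genes with lower values of the 48 genes.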

How the data were processed

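Raw counts per gene were deposited by the authors as 1 table of 27 libraries. Per the submitters' processing notes, TopHat2 2.1.1, TopHat, SAMtools 1.4, HTSeq and the build UMD3.1 were used, with no role or order. For the annotation release, strand setting and reads with several matches, the entry is: not given in the sources used here. Per the labels' protocols, TruSeq RNA version 2 libraries were made from total RNA. This kit does not mark strand, so counts of genes with antisense partners are uncertain. Near-identical copies are uncertain as well, because the handling of reads with several matches is not known. Columns were matched to calves by name. No library pair agreed within counting noise (lowest chi-square per gene 2.28 over 351 pairs).

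Analysis used R 4.3.3 with edgeR 4.0.16. filterByExpr (minimum count 10, minimum total 15, smallest group 9) kept 11429 genes. Totals were scaled by TMM, and log2 CPM carried a prior count of 2. A robust quasi-likelihood fit used all libraries, with Benjamini-Hochberg adjustment over all genes kept at 0.05. Score relations were tested with 100000 permutations, or exactly within groups. The edgeR test and the member rule were tested on simulated data. Alternatives were RLE scaling, other filters and prior counts, scaled genes, rank correlation, other thresholds, equal totals (reads drawn without replacement), DESeq2 1.42.0, a fit of only the groups compared, voom in limma 3.58.1, a replicate block, the library total as covariate, and leaving out each library. Leaving the 10 most abundant rows out of the table, all alternatives for the r with the most abundant gene, and the 12 h values without single libraries were added after seeing the data.

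The members, gene lists and tests were chosen with earlier results of these data known. The rule for naming genes was, where symbols are missing, the members of most negative r and of highest CPM besides the most abundant gene. Pathway and cell type lists could not be applied, since no identifier matched a symbol. Replicate numbers were not used for pairing.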

Additional observations from a re-analysis of the deposited data

Results flagged for a closer look

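A search for isolated animals covered 36 sets of 9 values, each a measure or a gene at a single feeding time. It found 2, and about 1 set in 20 is found by chance. ENSBTAG00000020308, the most abundant low-end gene, stood at 823.3 normalised CPM in replicate 4 at 12 h, while the calf nearest to it had 743.3. Replicate 3 at 0 h had 4844 of the rare genes seen at equal totals, and 4185 was the nearest other value.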

How the results depend on the processing

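Both the size and the make-up of the set depended on the settings of the rule. The rule found 85 genes with a filter of 1 CPM in 9 libraries, 74 without a filter and 253 at a threshold of -0.6, each including the 48. It found 191 with genes scaled (36 of the 48), 77 with Spearman correlation (45), 26 at equal totals (16) and 1 at a threshold of -0.8. RLE scaling, prior counts of 0.5 and 5, and the other settings gave 44 to 65. Leaving out a library gave 44 to 123 genes, with 32 to 48 of the 48. The number was over 1.5 times the original without replicates 1 (76), 2 (75) and 4 (74) at 0 h, 2 (123), 3 (75) and 9 (82) at 6 h, and 5 (90) and 6 (78) at 12 h. The fewest of the 48 were found again without replicate 8 at 6 h (32) and replicate 3 at 12 h (33). For the 48 themselves, the median r with the most abundant gene was 0.30 to 0.42 under other scaling, filters, prior counts or equal totals, and 0.35 to 0.47 with a library left out.

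Under each alternative run, 0 of the 48 were called in any comparison. Over all genes, 12 h against 0 h gave 1 call without a filter, 3 in DESeq2, and 0 to 1 when a library was left out (1 without replicate 9 at 0 h, replicate 5 at 6 h or replicate 8 at 6 h). DESeq2 called 2 among the 3 groups. The median log2 fold changes of the 48 kept their signs, at 0.01 to 0.06, -0.08 to -0.02 and -0.11 to -0.05. Near 0, single values changed sign. ENSBTAG00000011304 in 12 h against 0 h became 0.0221 at equal totals. ENSBTAG00000020308 in 12 h against 0 h ran from -0.0390 to 0.00548, and ENSBTAG00000020403 in 6 h against 0 h from -0.0133 to 0.0759, over the fits that leave out a library. The score's r with the library total was -0.12 within 6 h. The causes of these changes were not tested. The test among the 3 groups has no fit of only the groups compared, and equal totals rest on a single random draw. With the replicate number as a block, 0 of the 48 and 0 of all genes were called, and the block changed no call. Of 27 same-numbered pairs, 5 had deviations correlated above 0.1 (median -0.04), and 2 libraries correlated best with their own number. These values show little likeness between same-numbered calves. They cannot exclude that calves were matched or handled together by number.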
